A study of Mus musculus with 2 samples.

Results

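The 40 genes described here drive or mark cell division. They are a list of known cell cycle genes, found by symbol, and all 40 were present among the 31053 genes counted. Of these, 11 act in S phase, when DNA is copied, 25 act around mitosis, and 4 (Stmn1, Hmgb2, Tubb5 and H2afz) are also expressed by many cells that do not divide. The retinas came from mice given sodium iodate (NaIO3) at 20 mg per kg into a vein, or the same volume of phosphate-buffered saline (PBS), and were taken on day 7. Sodium iodate is an oxidant that injures the retinal pigment epithelium, after which photoreceptors degenerate. Each group was 1 droplet single-cell RNA library made from the pooled retinas of 6 mice. The labels give no strain, sex or age and name no further allele or agent. Both groups were digested with papain and are labelled CD11b-positive microglia. Selection with CD11b magnetic beads is described for the NaIO3 cells alone, so any difference between the libraries cannot be told apart from that selection. With 1 library per group there was no replicate check and no test. Every interval below is a 95% interval that covers counting error only.

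A dividing cell first makes the enzymes that supply nucleotides and open and copy the DNA, then the kinases, motors and chromosome proteins that condense and separate the chromosomes. Neurons of the adult retina have left the cell cycle. Microglia, the resident immune cells of the retina, can divide after injury, and in rodents Müller glia, the main glia of the retina, seldom do. S-phase genes are known targets of E2F factors, which read sites such as TTTCCCGC. Many mitotic genes carry a cell cycle homology region (CHR, TTTGAA) and CCAAT boxes, which bind NF-Y.

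CCAAT was common to S-phase and mitosis promoters, while TTTGAA and the E2F-type letters were not. RefSeq windows of 300 bases (build GRCm38.p6, 250 before to 50 after the transcription start) were listed for 32 of the 40 genes and searched on both strands, each window counted once per motif. CCAAT was found in 28 of 32 members' promoters (87.5%), 8 of 10 of S-phase and 18 of 20 of mitosis genes, against 41.1% of 27025 genes with a promoter. TTTGAA was found for 15 of 20 mitosis genes (75.0%) and 1 of 10 S-phase genes (10.0%), against 20.2% of all genes. Both CCAAT and TTTGAA were found for those 15 mitosis genes, against 7.97% of all genes. An E2F-type match, TTTCCCGC or TTTGGCGC, was found for 4 of 10 S-phase genes and 0 of 20 mitosis genes, against 1.8% of all genes. A match describes the letters and shows no binding. Ccna2, Tpx2, Aurkb, Kif20a, Smc4, Mcm4, Stmn1 and H2afz had no entry. The S-phase and mitosis genes with the most unique molecular identifiers (UMIs, 1 per captured transcript) and a match are printed 5′ to 3′ on the strand of the gene, with matches in capitals. For Top2a, Mki67, Bub1b and Rrm1 the 250 bases before the start are shown. For Pcna and Mcm7, where annotated exons cover the window, 30 bases around 1 match are shown.
Top2a, chr11:99024190-99024439, minus strand: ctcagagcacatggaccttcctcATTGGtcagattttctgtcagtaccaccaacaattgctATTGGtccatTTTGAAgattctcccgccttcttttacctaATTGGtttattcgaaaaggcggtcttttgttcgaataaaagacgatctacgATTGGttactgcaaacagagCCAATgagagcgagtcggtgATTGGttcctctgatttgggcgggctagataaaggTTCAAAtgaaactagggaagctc
Mki67, chr7:135716380-135716629, minus strand: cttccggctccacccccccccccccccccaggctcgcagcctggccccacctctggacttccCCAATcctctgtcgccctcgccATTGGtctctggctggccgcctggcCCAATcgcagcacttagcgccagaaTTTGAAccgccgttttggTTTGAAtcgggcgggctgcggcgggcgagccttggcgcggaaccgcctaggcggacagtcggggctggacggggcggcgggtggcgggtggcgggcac
Bub1b, chr2:118597961-118598210, plus strand: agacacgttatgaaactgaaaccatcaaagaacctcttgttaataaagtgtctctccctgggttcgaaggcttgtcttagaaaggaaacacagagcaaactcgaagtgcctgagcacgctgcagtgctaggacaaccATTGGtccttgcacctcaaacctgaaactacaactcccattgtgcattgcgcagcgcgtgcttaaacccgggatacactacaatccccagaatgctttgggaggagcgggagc
Rrm1, chr7:102441445-102441694, plus strand: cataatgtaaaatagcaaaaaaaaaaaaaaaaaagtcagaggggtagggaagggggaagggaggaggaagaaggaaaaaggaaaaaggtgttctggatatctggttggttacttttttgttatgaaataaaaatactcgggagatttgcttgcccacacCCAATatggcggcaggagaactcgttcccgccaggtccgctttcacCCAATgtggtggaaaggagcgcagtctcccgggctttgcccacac
Pcna, chr2:132253249-132253278, minus strand: ccacgggtacgATTGGtccttgaggagagg
Mcm7, chr5:138172030-138172059, minus strand: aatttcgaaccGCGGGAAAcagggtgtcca
The printed sequences and windows are credited to RefSeq. The gene spans, from GENCODE M21, are 11:98992943-99024189 for Top2a, 7:135689784-135716361 for Mki67, 2:118598211-118641591 for Bub1b and 2:132249162-132253314 for Pcna. In these stretches ATTGG is CCAAT on the opposite strand, TTCAAA is TTTGAA on the opposite strand and GCGGGAAA is TTTCCCGC on the opposite strand. Top2a held 6 CCAAT matches, from 227 to 58 bases before the start, and TTTGAA at 179 and 23 bases before it. Mki67 held TTTGAA at 116 and 98 bases before the start. The Bub1b promoter held 1 CCAAT match, and its TTTGAA lay 41 bases after the start, outside the stretch shown.

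The PBS library held 6242 barcodes and 26605477 UMIs, and the NaIO3 library 9746 barcodes and 75981079 UMIs. Filtering and doublet removal left 5573 and 9308 cells, and 24 barcodes occurred in both libraries. Cell classes were named from marker genes, with the 40 genes and other cell cycle genes kept out of the clustering. PBS and NaIO3 held 11 and 1292 microglia-like cells, 39 and 716 Müller-like, 3 and 163 endothelial-like, 5148 and 4598 rod-like, 240 and 261 cone-like, 68 and 630 bipolar-like and 31 and 76 amacrine-like cells. T or NK lymphocyte-like cells (185) and dendritic-like cells (116) were found in NaIO3 alone. Against the labelled cell type, 92.4% of the PBS cells and 49.4% of the NaIO3 cells were rod-like. Levels are in CPM, the UMIs of a gene summed over a class and scaled to 1000000 UMIs of that class. The 11 PBS microglia-like cells held 41661 UMIs in all, so 1 UMI there is worth 24.0 CPM. CPM is not scaled to transcript length, so levels are compared for the same gene between cells and not between genes.

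In the NaIO3 retinas, cells with many cell cycle transcripts were found in the microglia-like and lymphocyte-like classes and were uncommon in neurons. After every cell was thinned to 1000 UMIs, 474 of 1069 microglia-like cells (44.3%, exact binomial interval 41.3 to 47.4) carried at least 5 UMIs summed over the 40 genes. Lymphocyte-like cells stood at 122 of 184 (66.3%, 59.0 to 73.1) and dendritic-like cells at 20 of 115 (17.4%, 11 to 25.6). Endothelial-like cells stood at 11 of 161 (6.83%, 3.46 to 11.9), and Müller-like cells at 23 of 672 (3.42%, 2.18 to 5.09). Rod-like cells of the same library, which here serve as the background from free RNA and from the broadly expressed genes, stood at 168 of 4323 (3.89%, 3.33 to 4.51). Cone-like cells stood at 5 of 257 (1.95%) and bipolar-like cells at 7 of 624 (1.12%). The Müller-like and rod-like shares lay within each other's intervals. Without thinning, 69.0% of microglia-like, 88.0% of Müller-like and 50.4% of rod-like cells passed. The median UMI counts of all these cells were 3462 in microglia-like, 26418.5 in Müller-like and 2663.5 in rod-like cells, so the unthinned shares are no guide to an order. Among cells with at least 1000 UMIs, the medians before thinning were 6276 in microglia-like and 2771 in rod-like cells.

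Most of the neuronal share came from the 4 broadly expressed genes. With those left out, 234 of 1069 microglia-like cells (21.9%, 19.4 to 24.5) and 57 of 184 lymphocyte-like cells (31.0%, 24.4 to 38.2) carried at least 5 UMIs over the other 36 genes. Rod-like cells then stood at 2 of 4323 (0.0463%) in NaIO3. In PBS they stood at 0 of 4874, which allows a share of up to 0.0616%. No cone-like or bipolar-like cell passed in NaIO3, which allows up to 1.17% and 0.481%. Müller-like cells stood at 5 of 672 (0.744%, 0.242 to 1.73) and dendritic-like cells at 5 of 115 (4.35%).

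In PBS, 0 of 7 microglia-like cells of sufficient depth carried at least 5 UMIs over the 40 genes, which allows a share of up to 42.9% by the 3-count limit and 41.0% by the exact binomial one. These limits and the NaIO3 interval of 41.3 to 47.4 cover the counting of cells alone. No call between the libraries is made from 7 PBS cells. PBS rod-like cells stood at 138 of 4874 (2.83%, 2.38 to 3.34), and 1 of 31 PBS Müller-like cells passed (3.23%).

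**Figure D1:**
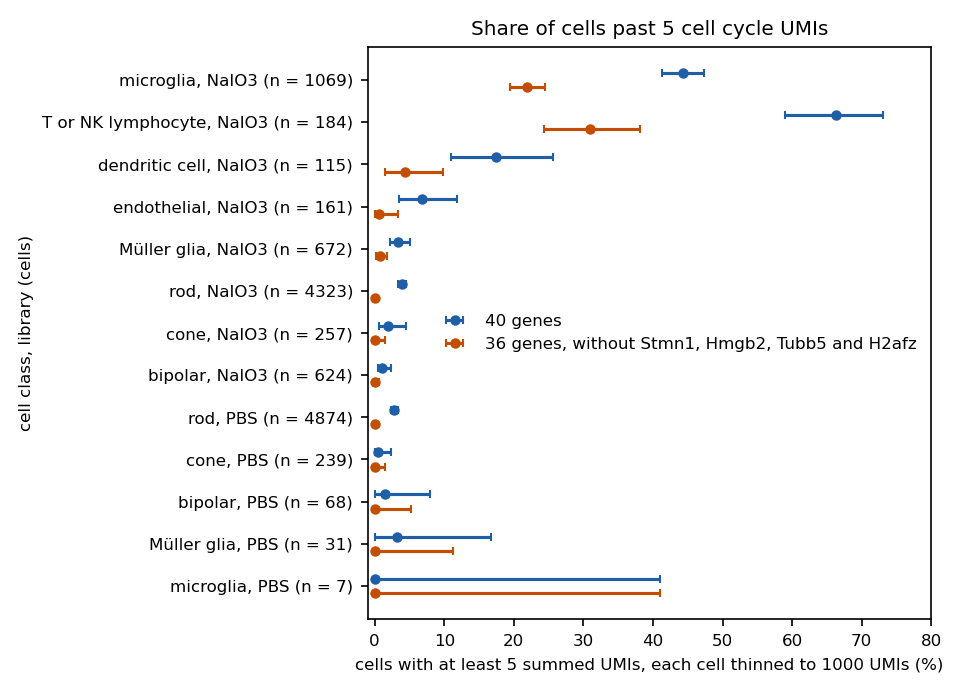
Share of cells (%, horizontal axis) with at least 5 summed UMIs of the 40 genes (blue) or of the 36 genes without Stmn1, Hmgb2, Tubb5 and H2afz (orange), by cell class and library, each cell thinned to 1000 UMIs. Bars are exact binomial 95% intervals. Microglia-like cells stand at 44.3% and 21.9% and rod-like cells of NaIO3 at 3.89% and 0.0463%.

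The microglia-like share was uneven within the class. It was 76.8% in immune sub-cluster 2 and 85.5% in sub-cluster 7, and between 25.0% and 37.8% in the other 4 sub-clusters with cells at that depth. Which genes separate these sub-clusters, and whether cell cycle genes outside the lists left out of the clustering take part, was not tested. Without sub-clusters 2 and 7 the class stood at 28.7%, still above the 3.89% of rod-like cells. The share was 33% in microglia-like cells with 1000 to 2000 UMIs before thinning, 45.3% from 2000 to 5000, 35.9% from 5000 to 20000 and 65.8% from 20000 UMIs. In rod-like cells the same depth bands stood between 2.44% and 4.46%. Whether the deepest microglia-like barcodes hold more than 1 cell was not tested beyond the doublet call. Microglia-like cells without any T or NK marker UMI stood at 43.8% (411 of 938).

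**Figure D2:**
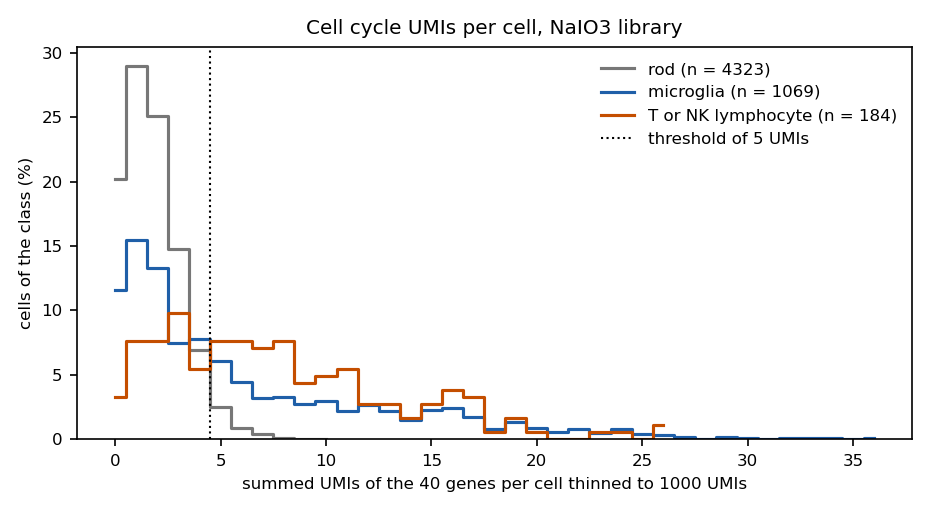
Percent of cells of each class (vertical axis) by the number of UMIs of the 40 genes per cell thinned to 1000 UMIs (horizontal axis), NaIO3 library. Rod-like cells (grey) lie almost wholly under the threshold of 5 (dotted line), while microglia-like (blue) and lymphocyte-like cells (orange) reach past 20.

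Among the S-phase genes, those of DNA copying were higher in NaIO3 microglia-like cells than in rod-like cells of the same library. Mcm2 to Mcm7 encode the helicase that opens DNA for copying. Mcm3 stood at 112.2 CPM against 2.88 in rods, Mcm5 at 59.1 against 1.53, Mcm6 at 17.3 times the rod level of 5.76 and Mcm7 at 88.8 against 15.6. Mcm4 (56.5 against 11.3) and Mcm2 (46.5 against 7.41) had ratios of 4.98 and 6.28. Of the nucleotide suppliers, Rrm2, the regulated subunit of ribonucleotide reductase, stood at 52.0 against 0.529 CPM, a ratio of 98.3. Tk1, thymidine kinase, stood at 56.8 against 0.647 CPM, a ratio of 87.9. Rrm1, the partner subunit of Rrm2, stood at 106.9 against 23.8 CPM, and Tyms, thymidylate synthase, at 52.9 against 21.3. Pcna, the sliding clamp of DNA polymerase, which also serves DNA repair, differed least, with 151.0 against 86.3 CPM, a ratio of 1.75. The rods thus carried Pcna, Rrm1, Tyms and Mcm7 at 15.6 CPM or more, and Rrm2 and Tk1 under 1 CPM.

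Among the mitosis genes the contrast was wider. Top2a, the topoisomerase that untangles chromosomes, stood at 442.7 CPM (431.8 to 453.8, exact Poisson interval) in microglia-like cells and 1.71 in rods. Mki67, the proliferation marker Ki-67, stood at 342.0 CPM (332.4 to 351.7) and 1.18. After thinning, 18.5% of microglia-like cells had a Top2a UMI and 13.4% a Mki67 UMI, against 0.278% and 0.0463% of rod-like cells. Of the cyclin-dependent engine of mitosis, Cdk1 stood at 88.5 against 0.706 CPM, its cyclin Ccnb1 at 55.8 against 0.235 and Ccnb2 at 77.1 against 1.53. The kinases Aurkb (60.2 against 0.294), Bub1 (23.6 against 0.0588), Plk1 (50.1 against 2.47) and Aurka (31.9 against 1.18) had ratios from 20.3 for Plk1 to 401.7 for Bub1, the last on 1 rod UMI.

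The chromosome and spindle proteins gave the same picture. Birc5, survivin, stood at 150.1 against 1.35 CPM, and the centromere proteins Cenpf, Cenpa and Cenpe at 116.5, 113.8 and 105.5 against 3.23, 4.59 and 12.7. The spindle proteins Tpx2 (99.7 against 1.18), Nusap1 (114.9 against 2.47) and Prc1 (128.2 against 1.65) had ratios of 84.8, 46.5 and 77.9. The motors Kif11 (67.5 against 1.18) and Kif23 (54.8 against 0.353) were at 57.4 and 155.5 times the rod level, and Kif20a, with 30.7 against 4.29 CPM, at 7.14. Ube2c and Cdc20, which drive the destruction of cyclins at the end of mitosis, stood at 144.6 against 1.35 and 49.3 against 0.647 CPM. The condensin subunits Smc2 (143.0 against 12.9) and Smc4 (189.6 against 61.5) had ratios of 11.1 and 3.08. Ccna2, cyclin A2, stood at 67.5 against 28.6 CPM. Ccna2 overlaps Exosc9 by 863 bases on the opposite strand. No source used here says whether counting used strand, so whether reads of the pair were told apart is not known here. Cdc20, Mcm7, Nusap1, Prc1, Tk1 and Ube2c also overlap genes on the opposite strand. The longest of these overlaps were 21810 bases for Prc1 (with Rccd1) and 10567 for Tk1 (with Gm20708).

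By the size rule used here (at least 2 times higher, with at least 20 CPM in either group and 20 summed UMIs), 37 of 40 members were higher in microglia-like than in rod-like NaIO3 cells, against 23.1% of all 8444 genes measured. The median log2 ratio of the members was 4.97, and that of all genes -0.52. The 3 that were not at least 2 times higher were Pcna, Tubb5 (811.6 against 463.0 CPM), a tubulin, and Bub1b. Bub1b, the spindle checkpoint kinase BubR1, stood at 67.7 CPM in microglia-like and 65.2 in rod-like cells, a ratio of 1.04 (0.952 to 1.13). The other broadly expressed genes were higher in microglia-like cells. Hmgb2, a chromatin protein, stood at 1348 against 669.1 CPM and H2afz, a histone variant, at 1332 against 223.7. Stmn1, which loosens microtubules, stood at 342.0 against 16.3 CPM.

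**Figure D3:**
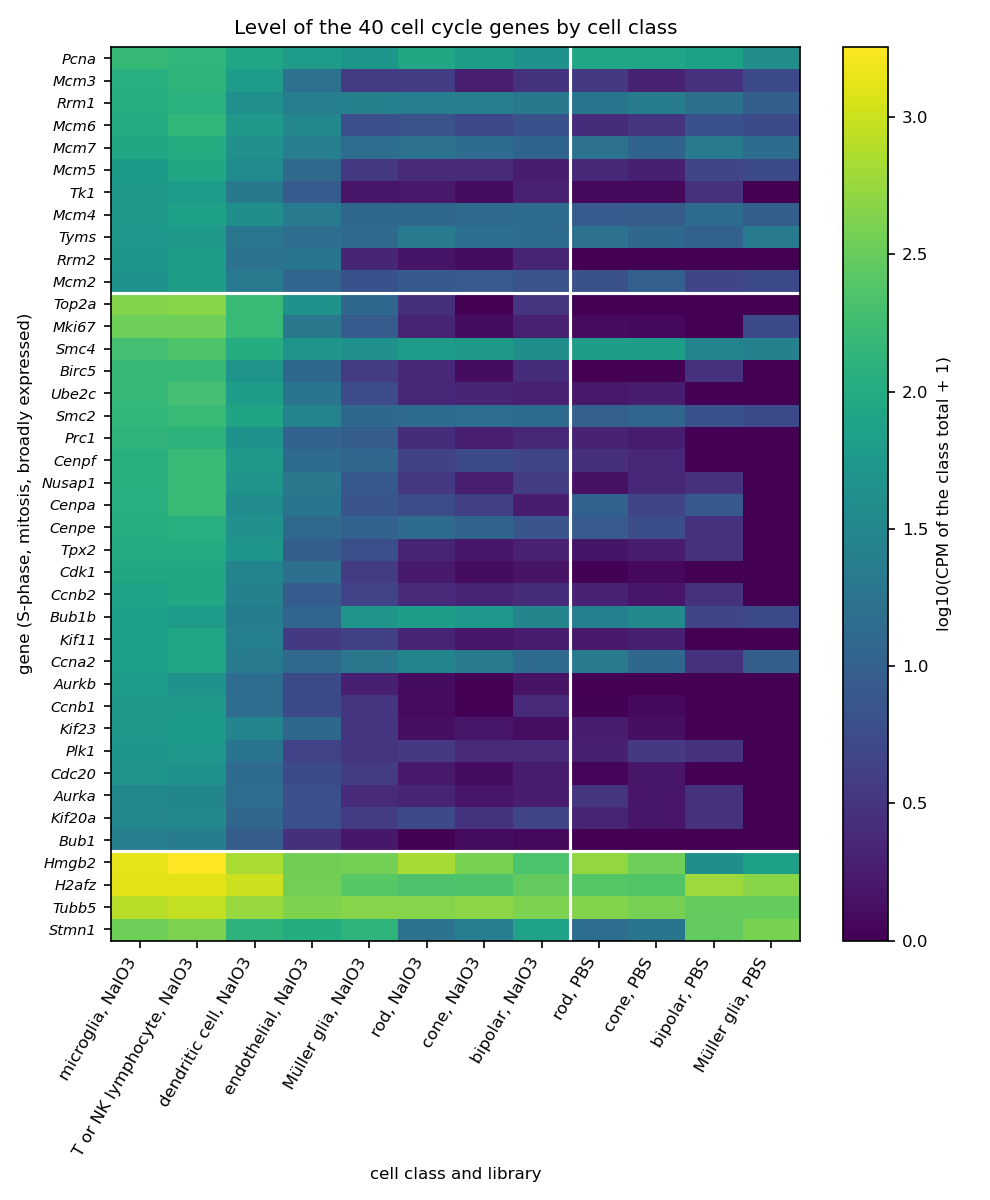
Level of each gene (rows; S-phase, mitosis and broadly expressed from top to bottom) in each cell class and library (columns), as log10 of CPM plus 1, with a PBS block right of the vertical line. Microglia-like and lymphocyte-like cells are high for nearly every gene, and Bub1b, Pcna, Smc4, Hmgb2, H2afz and Tubb5 are also present in rod-like cells of both libraries.

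Between the libraries, the microglia-like cells of PBS had few UMIs of these genes. Ccnb2, Smc4 and Mcm7 had 1 UMI each, Pcna and Hmgb2 5 each, Tubb5 12 and H2afz 17, and the other members had 0. The 25 mitosis genes summed to 2 UMIs (48.0 CPM, 5.81 to 173.4) in PBS and 2815 CPM (2788 to 2843) in NaIO3, a ratio of 58.6 (exact conditional binomial interval 16.2 to 484.3). The 11 S-phase genes summed to 6 UMIs (144.0 CPM) and 882.7 CPM, a ratio of 6.13 (2.82 to 16.7). The 4 broad genes stood at 816.1 and 3834 CPM, a ratio of 4.7 (3.36 to 6.78). For genes with 0 PBS UMIs, a floor of 3 UMIs over the PBS class was used. Top2a stood at 6.15 times that floor in NaIO3, Mki67 and Stmn1 at 4.75 times, Birc5 at 2.08 times and Ube2c at 2.01 times. The exact lower limits of the ratios were smaller, at 5.0 for Top2a, 3.86 for Mki67 and Stmn1, 1.69 for Birc5 and 1.63 for Ube2c. Hmgb2 rested on 5 PBS UMIs, with 120.0 against 1348 CPM, a ratio of 11.2 (4.81 to 34.6). H2afz had a ratio of 3.26 (2.04 to 5.6) and Tubb5 one of 2.82 (1.61 to 5.45). For Pcna the levels were 120.0 in PBS and 151.0 CPM in NaIO3, and the interval of the ratio (1.26, 0.538 to 3.88) includes 1.

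By the same size rule 11 of 40 members were at least 2 times higher in NaIO3 than in PBS microglia-like cells, and 0 were 2 times lower, against 9.01% of all genes higher and 32.0% lower. Genes with 0 PBS UMIs enter that count at the floor. Such a gene passes as higher only where it reaches 2 times the floor of 72.0 CPM in NaIO3. It can never count as lower, so for most members the lower count was fixed in advance. The 0 lower is therefore no result about the members to set against the 32.0%. Of the 11, Ccnb2, Smc4 and Mcm7 rested on 1 PBS UMI each, worth 24.0 CPM and so below that floor. Their ratios were 3.21 (0.575 to 127.0), 7.9 (1.42 to 312.2) and 3.7 (0.663 to 146.3), and the first and last intervals include 1. The median log2 ratio of all genes in this comparison was -0.29. The microglia genes C1qa, C1qb, C1qc and Trem2 summed to 18074 CPM in PBS and 10676 in NaIO3, and the 10 rod markers to 10177 and 1812 CPM. The part of these differences, and of the bead selection, in the values above was not tested.

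Cells past the threshold differed among themselves in which genes they carried. Of the 474 microglia-like cells at or past 5 UMIs, 240 had at least 2 UMIs of mitosis genes and fewer than 2 of S-phase genes, 61 the reverse, 92 both and 81 neither. Among the 595 microglia-like cells under 5 UMIs, 18, 30, 1 and 546 fell in these groups. Both kinds together were seen in 1 of 4323 rod-like cells. The mitosis list holds 25 genes and the S-phase list 11, so the S-phase and mitosis numbers are not on a common scale.

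What else distinguished those 474 cells was read from genes outside the 40. Here the threshold chose the cells, so other cell cycle genes describe how far the state extends and do not support it. Of 35 other mitosis genes measured, 34 were at least 2 times higher in the cells past the threshold, against 5.51% of all 6024 other genes. Tuba1b stood at 1603 against 519.3 CPM and Tubb4b at 312.2 against 105.9, both tubulins, and Pttg1, securin, was the exception with a ratio of 0.601. Of 14 other replication genes, 11 were at least 2 times higher, among them Dut (145.6 against 33.6 CPM), which clears dUTP, Lig1 (135.0 against 47.1), the ligase of DNA copying, and Gmnn (111.8 against 50.4), a brake on relicensing. Slbp, which binds histone mRNA, stood at 105.5 against 53.8, a ratio of 1.96. Histone genes, named after their values were seen, were among those with the highest ratios, with Hist1h1b at 360.8 against 15.1 CPM and Hist1h2ae at 421.9 against 26.9. Counts of single histone genes are uncertain, since near-identical copies can share reads.

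Regulators of the step into the cycle were divided in part. Of 14 measured G1 regulators, 4 (28.6%) were at least 2 times higher past the threshold, against 5.51% of all other genes. They were Ccne2 (cyclin E2, ratio 11.3), E2f8 (5.33), Rbl1 (2.51) and Cdc25a (2.09), and the interval of Cdc25a (0.858 to 5.42) includes 1. Without the level filter 8 of 18 (44.4%) were higher, against 9.74% of all other genes. The D-type cyclins, which carry growth factor signals to the cycle, were level: Ccnd1 stood at 234.2 against 270.6 CPM (ratio 0.865, 0.673 to 1.11) and Ccnd2 at 166.7 against 158.0 (1.05, 0.772 to 1.44). Cdk4, their kinase partner, had a ratio of 1.85 (1.2 to 2.87) and Cdk6 one of 1.3 (0.766 to 2.2). Of 9 measured inhibitors, Cdkn2d (6.81) and Cdkn2c (3.05) were at least 2 times higher (22.2%), against 5.51% of all other genes. Cdkn1a, which encodes p21, stood at 206.8 against 265.5 CPM (0.779, 0.599 to 1.01). Csf1r, the receptor that keeps microglia alive, stood at 683.5 against 826.9 CPM (0.827, 0.716 to 0.953).

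Genes of microglial state were read across the same threshold. It splits the cells on cell cycle UMIs, so the wider difference in cell cycle genes was fixed by that choice. Of 11 homeostatic genes measured, 0 were 2 times higher or lower, with Cx3cr1, the fractalkine receptor, at 930.4 against 954.6 CPM. The sub-clusters were unevenly split, with 142 and 118 of the 474 cells past the threshold in sub-clusters 2 and 7, against 43 and 20 of the 595 under it. Disease-associated genes summed to 26424 CPM past the threshold and 43864 under it, and 1 of 16, Igf1, was at least 2 times lower (5 against 45 UMIs, ratio 0.139), against 4.7% of all other genes. Apoe, a lipid carrier of activated microglia, had 15542 CPM past the threshold and 29227 under it (ratio 0.532, 0.517 to 0.546). Within sub-clusters the Apoe ratio lay between 0.692 and 0.802, except in sub-cluster 2, where it was 1.51. Spp1, osteopontin, had a pooled ratio of 1.04 (0.956 to 1.14), but within sub-clusters it was 0.291 in sub-cluster 1 and between 1.22 and 2.4 in the other 5. Monocyte and macrophage genes summed to 3089 against 5040 CPM, with Lyz2 at a pooled ratio of 0.581 and Ms4a7 at 0.519, and 1 of 10, Mrc1, was at least 2 times lower (0.483). Within sub-clusters Lyz2 ran from 0.516 in sub-cluster 3 to 1.67 (1.16 to 2.45) in sub-cluster 2, and Ms4a7 from 0.525 to 0.887. Of 14 interferon genes 1, Ifit2, was at least 2 times lower (0.473), and of 10 cytokines 1, Cxcl2, was 2 times higher (2.01). The cells past the threshold had a median of 9803.5 UMIs before thinning and those under it 4784. Rod marker UMIs averaged 2.12 and 3.66 per 1000, and those of C1q and Trem2 10.1 and 12. The part of depth and of free RNA in these differences was not tested.

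**Figure D4:**
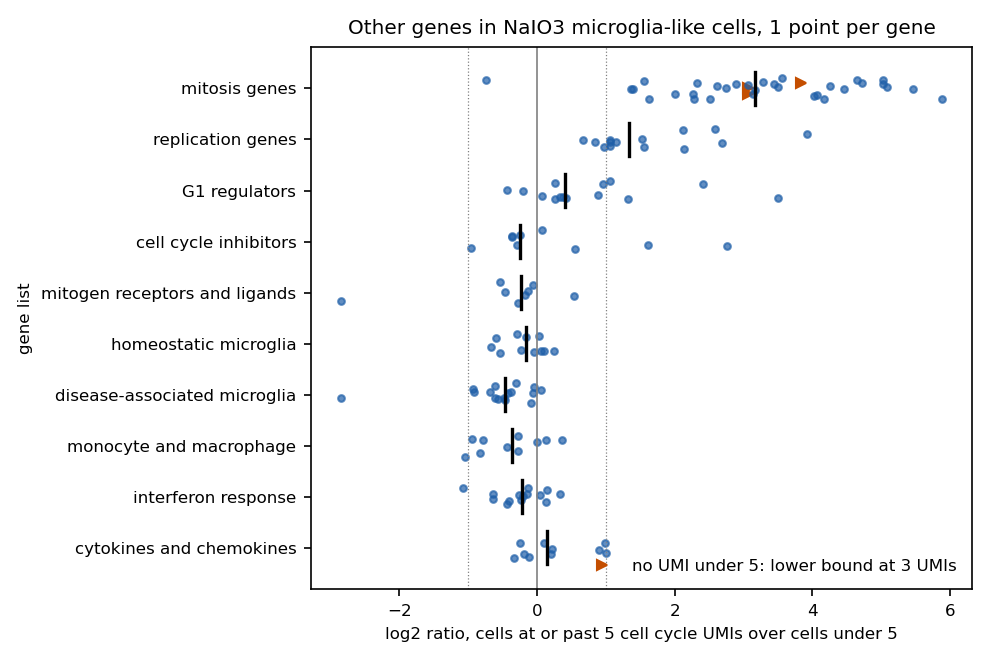
Log2 ratio of each measured gene outside the 40 (1 point per gene, horizontal axis) between NaIO3 microglia-like cells at or past 5 cell cycle UMIs and those under 5, by gene list, with the list's median as a vertical bar and dotted lines at 2 times. Triangles are genes with no UMI under 5, drawn at the bound set by 3 UMIs. Mitosis genes lie right of the dotted line except Pttg1, and homeostatic genes all lie between the lines.

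Lymphocyte-like cells carried the cell cycle genes at levels like those of microglia-like cells. S-phase genes summed to 1027 CPM (1004 to 1049) and mitosis genes to 3094 (3055 to 3133), with Top2a at 480.5 CPM and Mki67 at 339.9. By the size rule 37 of 40 members were higher than in rods, against 24.5% of all genes. The exceptions were Bub1b (61.5 against 65.2 CPM), Pcna (136.9 against 86.3) and Tubb5 (891.6 against 463.0). These barcodes were deep, with a median of 31734 UMIs, and 6022 CPM of their UMIs were C1qa, C1qb, C1qc and Trem2, 56.4% of the microglia-like level. Of 211 kept cells of any class with T or NK marker UMIs, 162 were in the lymphocyte-like class. Of the 211, 25 had under 2 C1q and Trem2 UMIs per 10000, and how many of those 25 lay in the class was not counted. In those 25 cells, with 3700 CPM of T and NK markers and 35.4 CPM of C1q and Trem2, 13 passed the threshold (52.0%, 31.3 to 72.2). S-phase genes stood at 1100 CPM there and mitosis genes at 3076, with Top2a at 513.8 and Mki67 at 364.0. A Mki67 UMI was found in 15 of the 25. Cell cycle transcripts thus stood at a like level in cells with T or NK marker UMIs and few microglia transcripts. The part of microglial RNA in the values of the lymphocyte-like class was not tested.

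Dendritic-like cells stood between the lymphoid and neuronal levels, with 437.8 CPM of S-phase and 1135 of mitosis genes. Of 31 members measured against rods, 23 were at least 2 times higher, against 21.6% of all genes, and Bub1b was lower (22.8 against 65.2 CPM), against 43.6% of all genes lower. Without the level filter, down to 3 summed UMIs, 32 of 40 were higher, against 21.7% of all genes. Mki67 stood at 159.9 CPM and Top2a at 160.4. C1q and Trem2 stood at 40.9% of the microglia-like level in this class. The 22 members that were under 2 CPM in PBS rods stood at 40% of it. Endothelial-like cells had 238.4 CPM of S-phase and 335.3 of mitosis genes, and 4 of 15 members measured (Top2a, Smc2, Mcm6 and Stmn1) were at least 2 times higher than in rods, against 24.4% of all genes. Ccna2 (12.2 against 28.6 CPM) and Bub1b (12 UMIs, against 65.2 CPM) were at least 2 times lower, against 30.4% of all genes. Without the level filter 24 of 39 members were higher, against 27.1% of all genes. Their 22 low members stood at 11.5% (10.2 to 12.8) of the microglia-like level and their C1q and Trem2 at 12.8% (12.2 to 13.5). Whether the cell cycle transcripts of those 2 classes belong to their own cells was not tested. The 1 endothelial-like cell past the threshold on 36 genes carried 6 C1q and Trem2 UMIs per 1000 and 2 of endothelial markers.

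**Figure D5:**
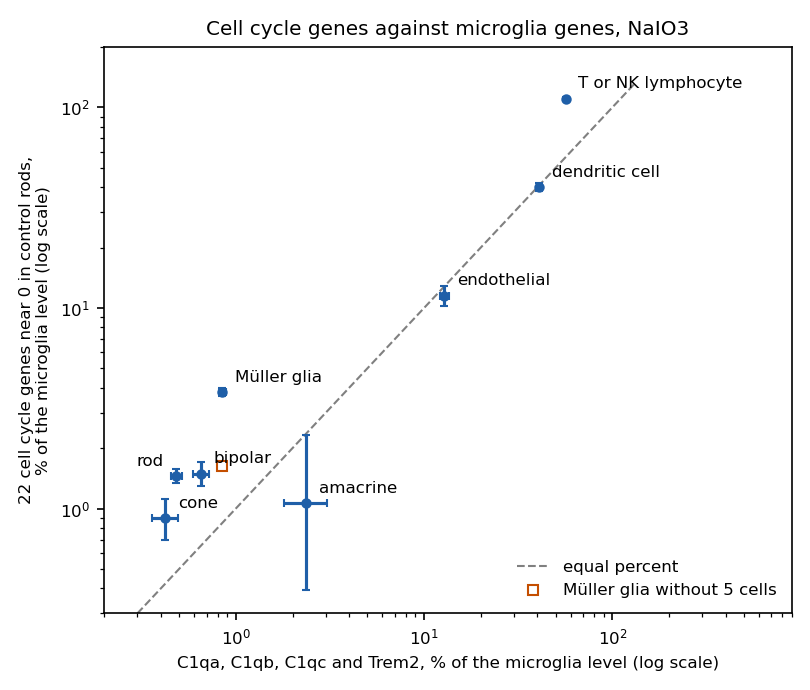
Summed level of the 22 members under 2 CPM in PBS rods (vertical axis) against that of C1qa, C1qb, C1qc and Trem2 (horizontal axis), both as percent of the microglia-like level on log scales, by NaIO3 cell class, with exact Poisson 95% intervals. Dendritic-like and endothelial-like cells lie on the line of equal percent, lymphocyte-like cells at 110.7% against 56.4%, and Müller-like cells at 3.81%, or 1.63% without 5 cells (open square).

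Over the 716 NaIO3 Müller-like cells, most Top2a and Mki67 UMIs lay in 5 of the 672 with at least 1000 UMIs. Within the 5, most of them came from 2 deep barcodes, of 51617 and 59486 UMIs. The other cells of the 5 held 3, 0 and 1 Top2a UMIs and 3, 4 and 1 of Mki67. Together the 5 cells held 0.584% of the class's UMIs but 172 of its 238 Top2a UMIs (72.3%) and 64.4% of its Mki67 UMIs. Their 40-gene UMIs per 1000 were 30, 28, 29, 11 and 11, of which 18, 17, 11, 8 and 2 were of mitosis genes. The first 3 had 13, 18 and 16 Müller marker UMIs per 1000, at most 2 rod marker UMIs and 0 of C1q and Trem2. The fourth had 6 Müller and 8 rod marker UMIs. The fifth had 9 and 17, with 1 of C1q and Trem2. On average they had 12.4 Müller marker UMIs per 1000, against 20.6 in the other 667 cells. The cells were chosen by their cell cycle UMIs, so their levels are a description. Before thinning the first cell held 51617 UMIs with 123 of Top2a and 73 of Mki67, and the fourth 59486 UMIs with 45 and 24, and whether either barcode holds more than 1 cell was not tested. Without the 5 cells, mitosis genes stood at 158.6 CPM in the class, and the 22 low members at 1.63% of the microglia-like level, against 3.81% with them. The 5 were chosen on these genes, so a lower level without them was fixed by that choice. The 1.45% of rods is over all rods, with none left out, so it is not set against the 1.63%.

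Over the whole class, the members at higher levels stood near the rod level, and many of those at low levels stood above it. By the size rule 1 of 10 measured members, Stmn1, was at least 2 times higher in Müller-like than in rod-like NaIO3 cells, against 14.4% of all genes. Without the level filter 18 of 40 were, 16 of them mitosis genes, against 27.5% of all genes, in a class whose 5 cells above hold 27.6% of its mitosis-gene UMIs. Between the libraries the mitosis genes stood at 48.0 CPM (11 UMIs) in PBS and 217.8 in NaIO3, a ratio of 4.54 (2.53 to 9.09). The S-phase genes stood at 109.1 and 131.6, a ratio of 1.21 (0.815 to 1.87). Bub1b made up part of the first difference, with 4.37 CPM on 1 UMI in PBS and 48.8 in NaIO3, a ratio of 11.2 (2.0 to 441.8). Hmgb2 stood at 69.8 and 374.9 CPM, a ratio of 5.37 (3.3 to 9.4). Stmn1 went the other way, from 397.2 to 129.6 CPM (0.326, 0.265 to 0.407), as did H2afz, from 471.4 to 254.3 (0.54, 0.446 to 0.659). Rod markers in the same cells stood at 6509 CPM in PBS and 22191 in NaIO3. In PBS rods Bub1b (24.6 CPM) and Hmgb2 (528.9) stood above the PBS Müller-like level, and Stmn1 (14.1) and H2afz (245.6) below it. The part of rod RNA in these values was not tested.

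Bipolar-like cells, which relay photoreceptor signals, fell into clusters 6 and 7, which differed in leading genes as well as in rod RNA. Car8 was among the leading genes of cluster 6, and Neurod4, Cabp5 and Grik1 among those of cluster 7. Cluster 6 held 18 PBS and 362 NaIO3 cells, and cluster 7 held 50 and 268. The part of that change of mix in the class values was not tested. Over the class Hmgb2 stood at 41.0 CPM in PBS and 217.1 in NaIO3 (5.29, 3.48 to 8.47), Bub1b at 3.73 and 29.7 (7.96, 2.17 to 66.3), Stmn1 at 292.9 and 74.9 (0.256, 0.213 to 0.309) and H2afz at 600.7 and 299.2 (0.498, 0.442 to 0.563). In cluster 7, where rod markers went from 6068 to 20190 CPM, Hmgb2 went from 36.2 to 308.5 and Bub1b from 5.57 to 42.5. In cluster 6, where rod markers went from 3977 to 1610 CPM, Hmgb2 went from 50.9 to 60.6 and Bub1b from 0 to 7.74. H2afz was lower in NaIO3 in both clusters, at 587.3 and 271.2 CPM in cluster 7 and 627.9 and 347.1 in cluster 6. Stmn1 went from 431.4 to 111.4 in cluster 7, and from 11.3 (2 UMIs) to 12.3 in cluster 6. Amacrine-like cells gave 395.3 and 50.4 CPM of Stmn1 and 47.0 and 423.8 of Hmgb2, with rod markers at 5472 and 25267.

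In rods themselves the cell cycle genes stood higher in NaIO3 on the CPM scale, least so for the broad genes. The 40 genes summed to 1537 CPM (1519 to 1556) in PBS and 1762 (1742 to 1782) in NaIO3, a ratio of 1.15 (1.13 to 1.17). The 4 broad genes had a ratio of 1.11 (1.09 to 1.13), the S-phase genes 1.2 (1.13 to 1.26), the mitosis genes 1.41 (1.34 to 1.49) and the 36 genes without the broad ones 1.31 (1.26 to 1.35). With TMM scaling, which sets the bulk of genes level, these were 0.892 for all 40, 0.863, 0.932, 1.1 and 1.02, so the sum and the broad and S-phase genes reversed and the mitosis genes did not. The median log2 ratio of all genes in rods was 0.29, and that of the 9 measured members 0.34. By the size rule 1 of 9 measured members was at least 2 times higher and 0 lower, against 10.7% and 2.91% of all genes. It was Bub1b, with 24.6 CPM (412 UMIs) in PBS and 65.2 (1109 UMIs) in NaIO3, a ratio of 2.65 (2.36 to 2.97). Bub1b was higher in NaIO3 in each rod cluster that held cells of both libraries: 21.9 against 46.8 CPM in cluster 0, 27.1 against 47.0 in cluster 1, 21.9 against 34.7 in cluster 2, 18.2 against 55.1 in cluster 13 and 45.6 against 62.3 in cluster 4. The lowest counts behind these were 12 and 3 UMIs in NaIO3 clusters 1 and 2, and 3 and 4 in PBS clusters 13 and 4. The cluster with most rods was cluster 0 in PBS (2651 cells) and cluster 4 in NaIO3 (2760 cells). In cone-like cells Bub1b stood at 32.6 and 53.1 CPM, a ratio of 1.63 (1.32 to 2.02).

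Without the level filter, down to 3 summed UMIs, 15 of 39 members were at least 2 times higher in NaIO3 rods, against 23.8% of all genes. Another 2 were lower, but the share of all genes lower at this setting is not given here, so that count has no background. Of the 24 mitosis genes among the 39 members, 12 were higher. Mcm6 stood at 1.56 and 5.76 CPM (3.7, 2.38 to 5.95), Kif20a at 1.2 and 4.29 (3.59, 2.16 to 6.21) and Nusap1 at 0.419 and 2.47 (5.9, 2.63 to 15.6). Top2a had 0 UMIs in PBS rods and 29 in NaIO3 (1.71 CPM). This was 9.5 times the floor of 3 UMIs, and the exact lower limit of the ratio was 7.25. Cenpa was lower, with 9.21 and 4.59 CPM (0.498, 0.374 to 0.658). Smc4 (66.6 and 61.5), Pcna (80.2 and 86.3) and Mcm7 (16.0 and 15.6) had intervals of the ratio that include 1. The summed level of the 22 members under 2 CPM in PBS rods, chosen on those PBS rods, was 0.544% of the NaIO3 microglia-like level in PBS rods and 1.45% in NaIO3 rods. C1q and Trem2 stood at 0.0459% and 0.483% in the same cells. The part of microglial RNA in the low members was not tested.

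Other cell cycle genes set microglia-like apart from rod-like NaIO3 cells as well. Of 38 other mitosis genes measured 32 were at least 2 times higher and 1 lower, Hmgn2 (261.0 against 585.9 CPM), against the 23.1% of all genes given above. Of 17 replication genes 10 were higher, and Dut was level (98.2 against 104.7 CPM). Of 17 G1 regulators 14 were higher, led by Ccnd1 (304.3 against 12.7) and Ccnd2 (222.9 against 1.53), the latter at 145.8 times the rod level. Of 11 inhibitors 3 were higher, among them Cdkn1a (313.2 against 10.3), and 4 were lower, among them Cdkn1b, which encodes p27 (51.3 against 104.9), shares close to the 23.1% higher and 37.8% lower of all genes. Cyclin D1, cyclin D2 and p21 transcripts were thus above the rod level in microglia-like cells, and, as given above, near equal on both sides of the threshold.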

How the data were processed

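Both libraries are droplet single-cell RNA libraries of pooled retinas, 1 per group. The deposited values are raw UMI counts per gene and barcode, made by the authors with Cell Ranger 3.0.2 per the file headers, with build mm10 per the submitters' processing notes. The treatment label set the groups. Cells were kept with at least 500 UMIs, 300 genes and at most 15% mitochondrial UMIs. Doublets were called with scrublet at an expected rate of 6%. It marked 133 NaIO3 cells (1.41%) and 0 PBS cells, so it did not work in PBS. Clustering (scanpy 1.11.5, Python 3.11.15) used 2000 variable genes without 125 cell cycle genes, 30 components, 15 neighbours and Leiden resolution 0.8. Immune clusters were clustered again. A class name needed 3 markers at 50 CPM and no rival type at 0.7 of its score, out of 21 types, and this scoring was written after the clusters were seen.

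UMIs were summed per class and library and scaled to the class total as CPM. Levels carry exact Poisson, shares exact binomial (Clopper-Pearson) and ratios exact conditional binomial intervals at 95%. A count of 0 was set at 3 counts over the class. No p-value was computed. The size rule was tested on simulated counts with known fold changes. For microglia-like over rod-like cells it recovered 100 of 100 genes changed by 4 times, among 7260 tested. For NaIO3 over PBS in microglia-like cells it recovered 74 of 100 at 4 times and 100 of 100 at 8 times, among 7595 tested, and called 3.38% of unchanged genes. These rates do not hold for genes with 0 PBS UMIs and an NaIO3 level under 2 times the floor of 72.0 CPM. The rule cannot call such genes higher, whatever their true fold. Cdk1 (88.5 CPM in NaIO3), Tpx2 (99.7) and Rrm2 (52.0) are among them.

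All 40 genes are named or counted. Of other lists up to 4 genes with the highest level are named, plus those that go the other way by 2 times. The values of 1 such gene are not reported here. Members and lists were chosen with earlier results of these data known. Alternatives covered thinning depth, threshold, the broad genes, doublets, cell filters, clustering, TMM scaling (edgeR 4.0.16, R 4.3.3), per-cell means and the level filter.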

Additional observations from a re-analysis of the deposited data

Results flagged for a closer look

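The 4 broadly expressed genes lay on opposite sides of 1 in different neurons on the CPM scale. NaIO3 over PBS, their summed level had a ratio of 1.11 in rod-like and 1.14 in cone-like cells and of 0.807 in bipolar-like cells. With TMM scaling the ratios were 0.863, 0.948 and 0.822, so the opposite direction is lost. The difference between the classes was not tested, and each class is 1 library per group.

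An unnamed immune sub-cluster, kept out of the comparisons, held many cell cycle transcripts. Of its 220 NaIO3 cells with at least 1000 UMIs, 143 (65.0%, 58.3 to 71.3) carried at least 5 UMIs of the 40 genes, and 68 (30.9%, 24.9 to 37.5) did so over the 36 genes without the broad ones. The sub-cluster held 448 NaIO3 cells and was led by haemoglobin and microglia genes.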

How the results depend on the processing

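No paired analysis was possible because each group is 1 library, and for the same reason no replicate could be left out. Of 112 alternative values of the main results, 53 stayed inside the main value's counting interval or, for the 2 counts of genes, within 1.5 times. Both counts at the size rule, 37 of 40 for microglia-like over rod-like cells and 11 of 40 for NaIO3 over PBS microglia-like cells, did so without the level filter. The 5-UMI shares moved most. In the order NaIO3 microglia-like, lymphocyte-like, Müller-like and rod-like, then PBS rod-like, they were 68.1%, 87.2%, 14.6%, 27.9% and 21.9% at 2000 UMIs per cell and 69.0%, 98.4%, 88.0%, 50.4% and 41.2% without thinning. They were 59.6%, 81.5%, 16.8%, 25.6% and 21.4% at 3 UMIs, 24.7%, 32.1%, 0.893%, 0.0231% and 0.0205% at 10 UMIs, and 21.9%, 31.0%, 0.744%, 0.0463% and 0% without the broad genes. Without thinning the Müller-like share passed the microglia-like one, in cells that are deeper. The microglia-like share was 40.6% with doublets kept, 52.0% at 1500 UMIs and 800 genes, 55.6% at 5% mitochondrial UMIs, 47.4% with cell cycle genes in the clustering, 51.3% at Leiden resolution 1.5 and 28.7% without sub-clusters 2 and 7, the last chosen after seeing the data. At 1500 UMIs and 800 genes, lymphocyte-like cells stood at 77.9%, Müller-like at 2.02% and PBS rod-like at 2.07%. Under the doublet, filter and clustering alternatives the cells were clustered and named again, so class membership changed too. The lymphocyte-like class held 95 cells at 1500 UMIs and 800 genes, against 185 in the main setting. NaIO3 rod-like cells numbered 2266 with doublets kept, against 4598. Lymphocyte-like cells stood at 75.0% at resolution 1.5 and NaIO3 rod-like cells at 4.55% at 5% mitochondrial UMIs.

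S-phase and mitosis levels in NaIO3 microglia-like cells were 672.0 and 1796 CPM as per-cell means, 815.5 and 2750 with doublets kept, 851.1 and 3048 at 1500 UMIs, 913.4 and 2927 at 5% mitochondrial UMIs, 851.8 and 2884 without cells with a T or NK marker UMI (chosen after seeing the data) and 697.1 and 1725 without sub-clusters 2 and 7. The mitosis level was 2915 with cell cycle genes in the clustering and 2990 at resolution 1.5. Rod-like S-phase genes stood at 184.7 CPM as a per-cell mean in NaIO3, and at 162.9 in PBS, with mitosis genes at 178.7, at 5% mitochondrial UMIs. The NaIO3 over PBS ratio of the 40 genes was 4.54 in microglia-like and 1.12 in rod-like cells as per-cell means. With TMM it was 11.8 and 0.892, which reverses the rod-like direction. At 5% mitochondrial UMIs it was 1.11 in rod-like and 1.31 in Müller-like cells. TMM ratios by gene group in rod-like cells, given above, were chosen after seeing the data. The cause of these moves was not tested. Depth limits the PBS microglia-like values, at 24.0 CPM per UMI.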

Other observations

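Some genes that restrain the cell cycle were higher in NaIO3 than in PBS rod-like cells, and others were lower. Of 11 measured inhibitors, 3 were at least 2 times higher and 0 lower by that size, against 10.7% and 2.91% of all genes, with a median log2 ratio of 0.77 against 0.29 for all genes. The 3 were Gadd45b (8.85 CPM in PBS and 147.2 in NaIO3) and Gadd45g (8.61 and 41.9), stress-response genes, and Trp53 (9.03 and 20.5), which encodes p53. Btg1 and Btg2, antiproliferative genes, stood at 179.7 and 328.8 and at 198.4 and 389.8 CPM. Gadd45a (100.3 and 60.1 CPM), Cdkn2c (99.2 and 59.0) and Cdkn1c (31.6 and 19.3) had lower values in NaIO3. Cdkn1a, under the level the size rule needs, stood at 0.538 and 10.3 CPM. Fgf2, a growth factor, stood at 21.0 and 422.2 CPM in rod-like cells and at 48.0 and 307.8 in Müller-like cells. In Müller-like cells Ccnd1 stood at 179.0 and 92.0 CPM, Vegfa, a vascular growth factor, at 235.7 and 70.5, and Gadd45b at 17.5 and 89.1. These are single libraries with no replicate check, and the part of rod RNA in the Müller-like values was not tested.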
